A study of Mus musculus with 14 samples.

Results

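Elane-high granulocyte-monocyte progenitors are the bone marrow stem and progenitor cells (HSPC) selected on their Elane level: each carried at least 10 Elane UMIs per 10000 UMIs of the cell. A UMI (unique molecular identifier) tags 1 captured RNA molecule. The cut selected 1074 of 14842 HSPC. The cells came from 2 PyMT mice, which gave 439 and 400 of them, and from 2 WT mice, which gave 202 and 33. PyMT mice carry a polyoma middle T transgene and develop breast tumours, and WT mice are wild type. The study asked how marrow cells differ when a breast tumour grows at a distance. Neither the age and strain of the mice nor the promoter of the transgene is given in the sources used here, and the same holds for the sort gates. All HSPC were labelled as bone marrow stem and progenitor cells, and no other treatment is in the labels. Every library title bears the word PyMT, but 2 of the 4 mice are WT by genotype label and by the authors' condition column, and these were followed.

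Elane encodes neutrophil elastase, a serine protease that is made at the promyelocyte stage and stored in primary (azurophil) granules with myeloperoxidase (Mpo), proteinase 3 (Prtn3) and cathepsin G (Ctsg). Granulocyte-monocyte progenitors give rise to neutrophils and monocytes. PU.1 (Spi1) and C/EBPα (Cebpa) set up the myeloid programme, Gfi1 and C/EBPε (Cebpe) act along the neutrophil branch, and Irf8 acts along the monocyte and dendritic branch. Granulocyte colony-stimulating factor (G-CSF) signals in these cells largely through STAT3, and SOCS3 is the feedback inhibitor of that signal.

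The genes for elastase and proteinase 3 are neighbours on chromosome 10, with 3072 bases between them in the mm10 annotation. Elane lies at chr10:79886247-79888215 on the plus strand. The promoter windows below are shown because the 4 genes head the granule programme that defines these cells. Each runs from 250 bases before to 50 bases after the start site in RefSeq (build GRCm38.p6), which can differ from the first base of the gene in GENCODE. They cover chr10:79886062-79886361 (Elane, plus strand), chr10:79879417-79879716 (Prtn3, plus strand), chr11:87793534-87793833 (Mpo, plus strand) and chr14:56102525-56102824 (Ctsg, minus strand), each printed 5′ to 3′ along the gene. Capitals mark GAGGAAGT, the core bound by PU.1-like ETS factors.
Elane: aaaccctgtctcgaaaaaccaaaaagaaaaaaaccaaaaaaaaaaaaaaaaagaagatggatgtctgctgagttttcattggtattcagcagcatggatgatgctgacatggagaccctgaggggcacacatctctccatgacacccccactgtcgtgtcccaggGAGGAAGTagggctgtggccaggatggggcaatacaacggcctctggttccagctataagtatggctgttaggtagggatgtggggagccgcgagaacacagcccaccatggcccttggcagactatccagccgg
Prtn3: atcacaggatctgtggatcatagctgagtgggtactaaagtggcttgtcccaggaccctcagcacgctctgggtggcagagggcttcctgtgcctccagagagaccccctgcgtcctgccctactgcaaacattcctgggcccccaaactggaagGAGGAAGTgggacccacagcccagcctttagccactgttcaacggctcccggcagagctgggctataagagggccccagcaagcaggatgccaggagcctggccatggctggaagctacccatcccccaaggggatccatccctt
Mpo: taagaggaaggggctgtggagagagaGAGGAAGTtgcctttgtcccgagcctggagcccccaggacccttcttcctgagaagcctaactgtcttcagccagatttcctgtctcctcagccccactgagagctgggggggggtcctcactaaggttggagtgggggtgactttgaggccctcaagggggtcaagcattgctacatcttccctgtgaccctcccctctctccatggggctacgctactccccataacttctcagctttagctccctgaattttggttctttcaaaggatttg
Ctsg: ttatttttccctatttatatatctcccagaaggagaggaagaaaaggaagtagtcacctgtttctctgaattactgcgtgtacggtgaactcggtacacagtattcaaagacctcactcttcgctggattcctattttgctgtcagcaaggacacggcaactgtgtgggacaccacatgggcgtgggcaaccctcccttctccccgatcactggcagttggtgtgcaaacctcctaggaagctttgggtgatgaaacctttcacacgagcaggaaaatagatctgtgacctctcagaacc
The letters GAGGAAGT began 85 bases before the start site of Elane, 95 before that of Prtn3 and 224 before that of Mpo. They were not in the window of Ctsg. They occurred on either strand in 3.20% of 32851 mouse promoter windows of this length. Both strands of the windows of Elane, Prtn3, Ctsg, Mpo, Ms4a3, Fcgr3 and Ly6c2 (7 of 8 genes; Cebpe was not matched) were searched, also for TTGCNNAA (C/EBP; in 10.8% of all windows) and TGTGGTT (RUNX; in 5.27%). TTGCNNAA was found for Ms4a3 and Fcgr3, and TGTGGTT for Ly6c2, which also held GAGGAAGT. No match overlapped one of another motif, and a match describes the sequence only.

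The 4 mice gave 3602 and 5608 PyMT and 3422 and 2210 WT HSPC. Median UMIs per cell were 7149 and 4257 in PyMT mice and 6644 and 6768 in WT mice, so PyMT replicate 2 was the shallowest library. Elane-high cells held more RNA than the rest, with medians of 13478 and 9459 UMIs in PyMT mice and 13479 and 14712 in WT mice, against 4031 to 6681 in other HSPC. Their summed counts came to 5788682 and 3773224 UMIs in PyMT mice and to 2668660 and 461007 in WT mice. WT replicate 2 therefore rests on 33 cells. No doublet caller was run, and 93 barcode sequences (187 cells) occurred in more than 1 library. Of the Elane-high cells, 37 also held a Gata1 UMI, 81 a Procr UMI and 25 at least 2 Dntt UMIs per 10000. The part of doublets in these was not tested.

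The markers given for these cells were all high in them. Counts were summed per mouse and given as UMIs of a gene in 1000000 UMIs (CPM). Because the cut itself uses these cells, the next values describe them and are not tested. Elane had 7466 and 7095 CPM in Elane-high cells of PyMT mice and 7636 and 8709 CPM in those of WT mice, against 26.8 to 214 CPM in all other HSPC. Mpo reached 13077 and 14422 CPM in PyMT mice and 15349 and 15978 CPM in WT mice, against 998 to 2154 CPM in other HSPC. It was the most abundant of the 4 main granule genes. Ms4a3, a membrane protein of granulocyte-monocyte progenitors, averaged 882 CPM against 42.9. Cebpe averaged 154 against 4.27 CPM, Fcgr3 (the CD16 immunoglobulin receptor) 113 against 3.88 CPM and Ly6c2 (a surface antigen of monocytes and their precursors) 165 against 7.33 CPM. In single cells, Mpo was detected in 99.5% of Elane-high cells and 85.2% of others, Ms4a3 in 85.2% and 17.0%, and Cebpe in 44.6% and 2.57%.

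Of 3924 genes with at least 50 CPM in either compartment, 41 were over 2-fold higher and 75 over 2-fold lower in Elane-high cells than in other HSPC in all 4 mice. The 15 largest mean log2 ratios belonged to Elane (6.32 ± 1.38, SD over 4 mice), Cebpe (4.90 ± 1.10), the tight junction gene Cldn15 (4.53 ± 0.91), Fcgr3 (4.48 ± 0.69), Ly6c2 (4.46 ± 1.42), Ms4a3 (4.37 ± 0.60), haptoglobin (Hp, 4.08 ± 1.41), Trem3 (3.96), histidine decarboxylase (Hdc, 3.75), Dmkn (3.61), Igsf6 (3.54), Mrgpra2b (3.22), Mpo (3.15 ± 0.61), Ctsg (2.88 ± 0.87) and Rgcc (2.87 ± 0.20). In each case but Rgcc the ratio was widest in WT replicate 2, whose other HSPC also held the least Elane (26.8 CPM). Genes at the other end included Mycn (−4.45), the lymphoid polymerase Dntt (−4.00), the platelet factor Pf4 (−3.90), the basophil protease Prss34 (−3.77), lymphotoxin beta (Ltb, −3.45), the globin Hbb-bt (−3.14), Cd74 (−3.10), Pdzk1ip1 (−3.01) and carbonic anhydrase 2 (Car2, −2.92). They mark lymphoid, megakaryocytic, erythroid, basophil and stem-like cells.

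By gene list, 21 of 24 primary granule genes in the table were higher in Elane-high cells in all 4 mice, with a median log2 ratio of 1.64. Over all genes in the table the median was −0.26, with 13.5% higher and 49.6% lower in all 4 mice. Endoplasmic reticulum genes were high as well: 22 of 28 genes of protein folding and the unfolded protein response were higher in all 4 mice, with a median of 0.75. Sdf2l1 had 656 CPM against 211, and the chaperone Hspa5 (BiP) 1326 CPM against 585. Of 41 respiratory chain genes 34 were higher, by a median of 0.23. The reverse held for other lineages. All 25 stem and multipotent genes were lower in all 4 mice (median −1.91), as were 21 of 22 megakaryocyte and erythroid genes (median −2.28) and 14 of 17 lymphoid genes (median −1.39). Ly6a (Sca-1) averaged 15.1 CPM against 70.3.

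Genes of secondary and tertiary granules, made later in neutrophil maturation, were mostly low. Camp averaged 0.29 CPM in Elane-high cells, S100a9 0.24 CPM and Ngp 1.42 CPM. Of 12 such genes measured, 6 were higher in all 4 mice, among them Lcn2 at 31.1 CPM against 2.16 in other HSPC and Anxa1 at 289 CPM. Receptors of the myeloid growth factors differed less than the granule genes. Csf3r, the G-CSF receptor, averaged 78.9 CPM against 68.9. Csf2ra, the GM-CSF receptor alpha chain, averaged 86.0 CPM against 55.3, and Csf1r, the M-CSF receptor, 42.7 CPM against 18.4. Kit averaged 68.5 CPM against 108 and Flt3 82.4 CPM against 262. Among transcription factors, Cebpa had 134 CPM against 50.7, Gfi1 58.1 against 25.7 and Spi1 393 against 278. Irf8 had 252 CPM against 178 and was higher in 3 of 4 mice.

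Within the Elane-high cells, those with more Elane held more RNA of several neutrophil genes and less of several monocyte genes. Elane bins were compared in both PyMT mice and WT replicate 1 (the bins of WT replicate 2 held 9 to 12 cells and were left out), again as a description. From 10 to under 30, through 30 to under 100, to 100 and over Elane UMIs per 10000, Mpo averaged 10295, 14183 and 20173 CPM. Ms4a3 averaged 305, 770 and 1668 CPM over the same bins. Cebpe averaged 33.3, 88.1 and 317 CPM and Fcgr3 15.6, 62.3 and 255 CPM, the steepest gradients of the 4. Gfi1 averaged 35.6, 50.2 and 94.4 CPM. Prtn3, by contrast, changed little, at 4334, 5173 and 5716 CPM.

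Several genes of the monocyte branch and of less mature progenitors ran the other way, though not Ly6c2, which averaged 71.3, 134 and 223 CPM over the 3 bins. Irf8 averaged 330, 248 and 129 CPM over the 3 bins and Csf1r 55.2, 36.7 and 23.1 CPM. The lysosomal protease Ctss averaged 54.1, 36.5 and 13.5 CPM and the chemokine receptor Ccr2 65.4, 59.5 and 30.6 CPM. Cd34, a marker of immature progenitors, averaged 633, 509 and 350 CPM. Cell by cell, the Spearman correlation with Elane lay between 0.70 and 0.78 for Mpo and between 0.69 and 0.74 for Ms4a3 over the 4 mice (33 to 439 cells each). For Cd34 it lay between −0.44 and −0.32 and for Irf8 between −0.39 and −0.14. For Ctss it lay between −0.22 and −0.15 and for Csf1r between −0.19 and 0.01. For Ccr2 it was −0.06 and −0.03 in PyMT mice and −0.23 and −0.33 in WT mice. In PyMT replicate 1 Ccr2 did not fall from the lowest bin (68.4 CPM) to the middle one (72.7 CPM). Cells of 1 mouse share a library and differ in depth, so these describe the cells only.

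**Figure D1:**
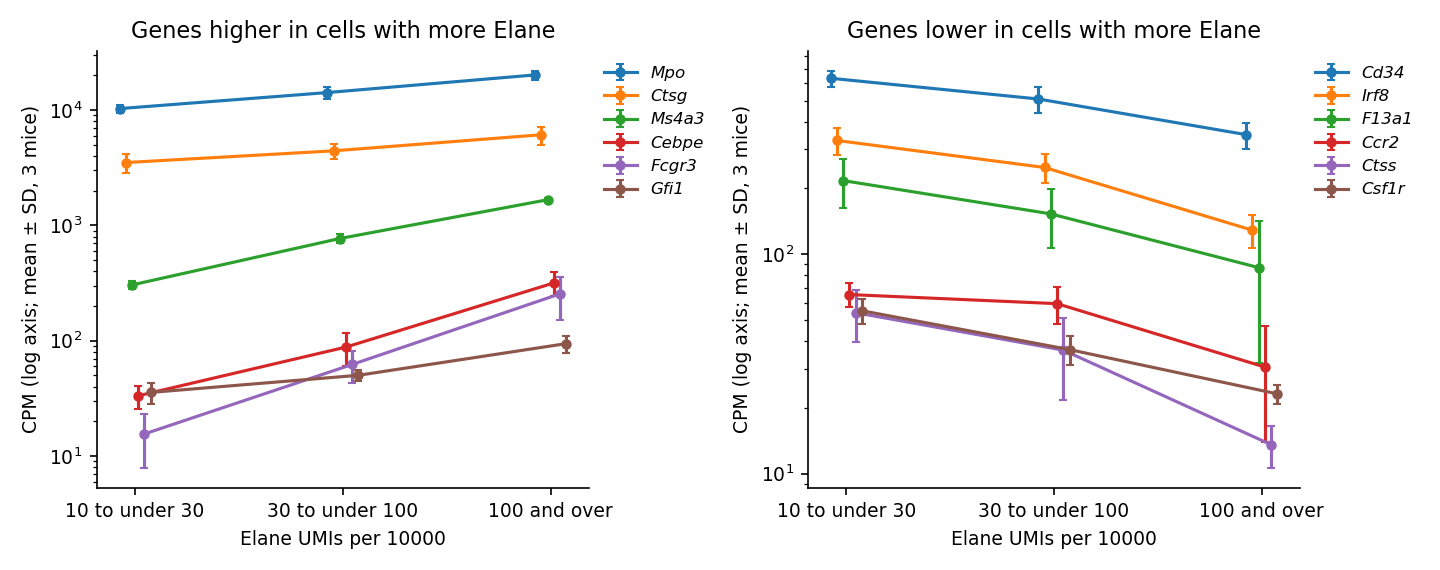
Levels of 12 genes in Elane-high cells by Elane level (x axis, Elane UMIs per 10000; y axis, CPM on a log axis; points are means over PyMT replicates 1 and 2 and WT replicate 1, bars are SD). Cebpe and Fcgr3 differ most between the bins (33.3 to 317 and 15.6 to 255 CPM), and Cd34 and Irf8 run the other way (633 to 350 and 330 to 129 CPM).

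The cut falls on a gradient and not in a gap. The 176 cells just inside it (10 to under 15 Elane UMIs per 10000) had 9092 CPM of Mpo and 229 CPM of Ms4a3. The 675 cells just outside it (5 to under 10) had 5939 CPM of Mpo and 140.1 CPM of Ms4a3, and the 8116 cells with no Elane UMI had 982 and 32.2 CPM. Median UMIs were 9813 just inside and 5872 just outside.

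Elane-high cells were a larger share of HSPC in both PyMT mice than in both WT mice. They made up 12.2% (95% Clopper-Pearson interval 11.1 to 13.3) and 7.13% (6.47 to 7.84) of HSPC in PyMT mice, against 5.90% (5.14 to 6.75) and 1.49% (1.03 to 2.09) in WT mice. The groups did not overlap, although PyMT replicate 2 and WT replicate 1 lay close together. The intervals cover counting error only. The mean was 9.66% ± 3.57 in PyMT and 3.70% ± 3.12 in WT mice (SD, n = 2 each), a difference of 5.96 percentage points or 2.61-fold. The exact two-sided permutation test over mice gave p = 0.333, the smallest value that 2 mice against 2 allow. Without WT replicate 2 the ratio was 1.64, and without WT replicate 1 it was 6.47. At a cut of 50 Elane UMIs per 10000, chosen after seeing the data, the shares were 5.64% and 2.85% in PyMT mice and 2.43% and 0.769% in WT mice.

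Elane UMIs were also found in cells chosen by Gata1, a gene of the megakaryocyte and erythroid lineages. Gata1-positive cells held at least 1 Gata1 UMI, Elane-high ones included, and were not otherwise checked for lineage. An Elane UMI was found in 64.3% and 37.1% of them in PyMT mice and in 42.5% and 12.4% in WT mice. Their median depth was 6780 and 4915 UMIs in PyMT mice and 7369 and 8464 UMIs in WT mice. The shares in all HSPC were 70.2% and 41.5% in PyMT mice and 44.8% and 15.5% in WT mice. In both sets PyMT replicate 2 lay below WT replicate 1. In every mouse the share in Gata1-positive cells lay somewhat below that in all HSPC. Pooled per 10000 UMIs, Gata1-positive cells held 5.12 and 6.30 Elane UMIs in PyMT mice and 2.57 and 0.533 in WT mice. These pools include 12 and 17 Elane-high cells in PyMT mice and 7 and 1 in WT mice. Gata1-positive cells that were not Elane-high had 16.5 to 168 CPM of Elane over the 4 mice. They averaged 83.4 CPM of the marker Ms4a3, against 42.9 CPM in all HSPC that were not Elane-high. Cells at 5 to under 10 Elane UMIs per 10000 made up 7.88% and 5.33% of HSPC in PyMT mice and 2.48% and 0.317% in WT mice. The part of free RNA in the share was not tested. With every cell thinned to 2000 UMIs and a cut of 2 Elane UMIs, which left out 7 and 201 PyMT and 8 and 2 WT cells, the shares were 17.2% and 9.73% in PyMT mice and 7.88% and 1.63% in WT mice.

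**Figure D2:**
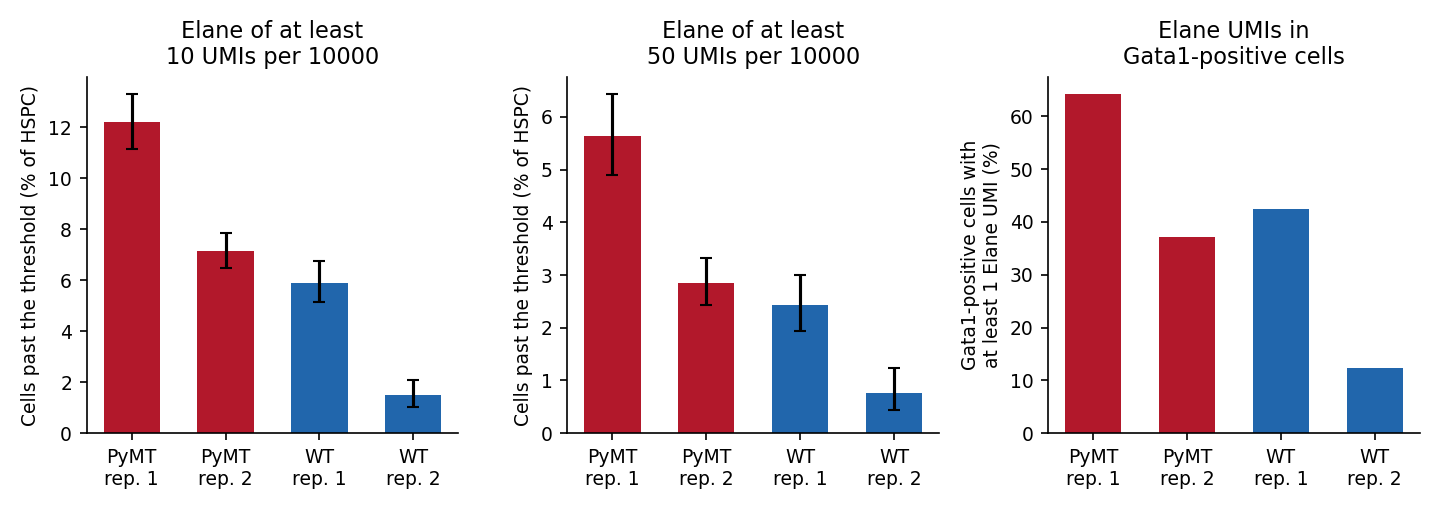
Share of HSPC past an Elane cut of 10 (left) and 50 (middle) UMIs per 10000 in each mouse, with 95% Clopper-Pearson intervals, and share of Gata1-positive cells with at least 1 Elane UMI (right). The PyMT mice lie above the WT mice in the first 2 panels (12.2% and 7.13% against 5.90% and 1.49% at the cut of 10), whereas in the right panel PyMT replicate 2 (37.1%) lies below WT replicate 1 (42.5%).

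Other cells were chosen by single markers for comparison. Gata1-positive cells made up 9.63% and 8.08% of HSPC in PyMT mice and 16.1% and 12.04% in WT mice. Procr-positive, stem-like cells made up 11.6% and 10.1% in PyMT mice and 13.8% and 14.8% in WT mice. Cells with at least 2 Dntt UMIs per 10000, of lymphoid-primed progenitors, made up 33.0% and 29.2% in PyMT mice and 20.3% and 25.97% in WT mice. The groups did not overlap in any of the 3, and each exact permutation test gave p = 0.333.

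Elane-high cells did not carry more Elane in PyMT mice. The mean among them was 69.1 and 63.3 Elane UMIs per 10000 in PyMT mice and 73.0 and 80.5 in WT mice. Both PyMT mice lay below both WT mice, by 0.21 on the log2 scale. The cut sets the lower bound of this value, so it is given without a test. Cells at 100 and over made up 24.6% and 20.8% of Elane-high cells in PyMT mice and 24.3% and 27.3% in WT mice, so the make-up of the 3 bins overlapped between the groups.

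Expression was next compared between PyMT and WT mice within the Elane-high cells on counts summed per mouse. The p-values measure the spread between these 4 libraries, 1 a mouse. Of 9409 genes tested with edgeR's quasi-likelihood test (Benjamini-Hochberg adjusted p under 0.05), 24 were higher (0.255%) and 12 lower (0.128%) in PyMT mice. CPM ranges that do not overlap are common with 2 mice against 2: PyMT mice lay above WT mice for 21.9% of genes and below for 21.4%. At an unadjusted p under 0.05, 6.31% of genes were higher and 5.19% lower. The common biological coefficient of variation was 8.32%. Of the 36 called genes, 12 were also called without each mouse in turn, 20 were lost without WT replicate 1 and 10 without WT replicate 2. Without 1 mouse the number of calls was 347 (PyMT replicate 1 left out), 328 (PyMT replicate 2), 41 (WT replicate 1) or 68 (WT replicate 2). Levels below are TMM-normalised CPM, given for replicate 1 and then 2.

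The 4 rises of smallest p were all on the G-CSF and STAT3 response list, which was chosen with earlier results of these data known. Junb is also on the immediate-early and stress list. Socs3, the feedback inhibitor of JAK and STAT signalling (chr11:117966079-117970047), had 23.6 and 20.3 CPM in PyMT mice, against 2.95 and 0 CPM in WT mice. The count of 0 in WT replicate 2 allows up to 6.51 CPM, so the size of the fold is uncertain while the groups lie far apart. The log2 fold change was 3.13 ± 0.41 (SE; adjusted p = 0.000405 by edgeR). Pim1, a kinase that promotes survival of myeloid cells (chr17:29490753-29496112), had 289 and 279 CPM in PyMT mice and 146 and 122 CPM in WT mice. Its change was 1.03 ± 0.12 (adjusted p = 6.9e-05 by edgeR), a 2.04-fold rise. Cebpb, the C/EBP factor of emergency granulopoiesis (chr2:167688915-167690418), had 246 and 208 CPM in PyMT mice and 130.1 and 96.6 CPM in WT mice. It rose by 0.91 ± 0.14 (adjusted p = 0.00192 by edgeR). Junb, an AP-1 factor that restrains myeloid proliferation (chr8:84974484-84978718), had 164 and 209.7 CPM in PyMT mice and 102 and 75.1 CPM in WT mice. It rose by 0.97 ± 0.15 (adjusted p = 0.0024 by edgeR). In all 4 genes both PyMT mice lay well above both WT mice, and each was called without each mouse in turn.

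Over the whole list of G-CSF and STAT3 response genes, 4 of 16 tested members were higher and 0 lower, with a median log2 change of 0.88, against −0.01 over all genes tested. PyMT lay above WT without overlap for 10 of the 16 and below for 2, against 21.9% and 21.4% of all genes tested. In all other HSPC of the same mice 7 of 19 members were higher and 0 lower, with a median of 0.81. Members that did not pass included Socs1 (9.77 and 9.36 CPM in PyMT mice, 2.95 and 0 CPM in WT mice; adjusted p = 0.0872 by edgeR), Bcl3 (14.4 and 13.6 against 4.42 and 10.7 CPM), Lrg1 (12.8 and 8.29 against 4.05 and 2.15 CPM) and Il4ra (36.1 and 37.7 against 20.3 and 21.5 CPM). The receptor and the transducer themselves were at similar levels. Csf3r had 69.6 and 80.2 CPM in PyMT mice and 82.5 and 83.7 CPM in WT mice (log2 change −0.15 ± 0.15), and Stat3 had 65.6 and 75.4 CPM in PyMT mice and 74.4 and 85.9 CPM in WT mice (−0.14 ± 0.15).

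Other genes rose with them. Ifitm3, an antiviral membrane protein induced by interferon, had 1113 and 940.0 CPM in PyMT mice and 664 and 672 CPM in WT mice (log2 change 0.62 ± 0.11, adjusted p = 0.00521 by edgeR). It was the only one of 32 tested interferon response genes that passed, and the median of that list was 0.18. Ifitm1 showed larger values, 1958 and 1504 CPM in PyMT mice and 650 and 301 CPM in WT mice, but did not pass (1.76 ± 0.48, adjusted p = 0.431). Dnaja1, an HSP40 co-chaperone, had 726 and 707 CPM in PyMT mice and 497 and 440.1 CPM in WT mice (0.59 ± 0.10, adjusted p = 0.00572 by edgeR). Jund had 250.2 and 221 CPM in PyMT mice and 138 and 193 CPM in WT mice (0.61 ± 0.14, adjusted p = 0.0447). With Junb these made 3 of 27 immediate-early and stress genes higher and 0 lower (13 at an unadjusted p under 0.05, median 0.34). PyMT lay above WT without overlap for 10 of them and below for 4, against 21.9% and 21.4% of all genes. Fos had 124 and 51.3 CPM in PyMT mice and 25.8 and 73.0 CPM in WT mice. The part of dissociation in this list was not tested. Without WT replicate 1 the calls of Ifitm3 (adjusted p = 0.0589) and Jund (0.729) were lost, and without WT replicate 2 that of Dnaja1 (0.0705). Jund was also lost at cuts of 20 and 50 Elane UMIs per 10000, in cells chosen by Prtn3, in G1 cells and with DESeq2 size factors. In G1 cells Ifitm3 and Dnaja1 were lost as well.

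Dntt, which encodes the terminal transferase of lymphoid progenitors, had 41.9 and 43.9 CPM in PyMT mice and 12.9 and 25.8 CPM in WT mice. It rose by 1.49 ± 0.25 (adjusted p = 0.00422 by edgeR), but the call was lost without WT replicate 1 (adjusted p = 0.637) and at the cut of 50 Elane UMIs per 10000. It was the only one of 9 tested lymphoid genes that passed. The lymphoid list summed to 390.3 and 443 CPM in PyMT mice and 405 and 412 CPM in WT mice. Dntt-positive cells were themselves a larger share of HSPC in PyMT mice, as given above, and the part of Dntt RNA from other cells was not tested.

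The remaining genes of the 12 rises of smallest p were Myl10 (107 and 102 CPM in PyMT mice, 59.7 and 34.3 CPM in WT mice), the respiratory chain isoform Cox4i2 (30.9 and 19.8 against 7.74 and 2.15 CPM), Zmynd19 (72.8 and 70.3 against 40.5 and 34.3 CPM), the RNA-binding Sm-like gene Lsm7 (426 and 587 against 308 and 307 CPM) and the serpin Serpina3g (109 and 126 against 70.0 and 68.7 CPM). Their log2 changes ran from 0.71 to 1.92. Serpina3g belongs to a family of close copies, so its reads are uncertain. Zmynd19 (adjusted p = 0.166) and Serpina3g (0.239) were lost without WT replicate 1. Retn, which encodes resistin, had 29 and 16 UMIs in PyMT mice and 0 in both WT mice, which makes it at least 4.91-fold higher against a floor of 3 UMIs over both WT mice. It was lost without WT replicate 1. The other 8 called rises were Adrm1, Tamm41, Snrpd3, Wdr18, Wfdc17, Phb, Nop16 and Ddx39. Apart from Wfdc17 (150.3 and 191 CPM in PyMT mice, 61.5 and 21.5 CPM in WT mice) their log2 changes ran from 0.47 to 0.71, and all but Wfdc17 were lost without WT replicate 1.

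**Figure D3:**
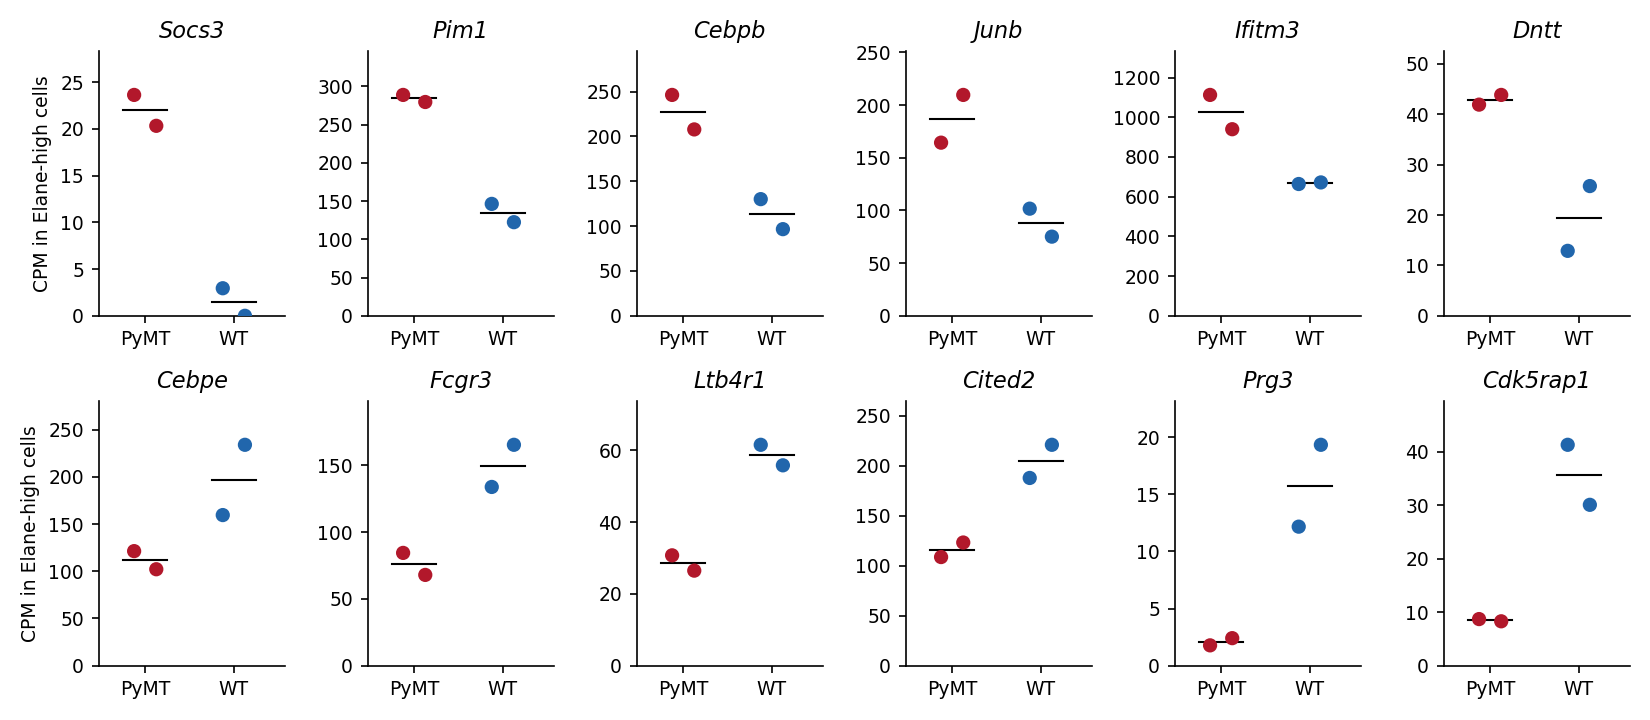
CPM of 12 called genes in Elane-high cells of each mouse (points; PyMT left, WT right; horizontal lines are means; each y axis starts at 0). The genes were drawn from called genes whose groups do not overlap, so the lack of overlap in each panel follows from that choice. Socs3 had 23.6 and 20.3 CPM in PyMT mice against 2.95 and 0 CPM in WT mice. Cdk5rap1 had 8.71 and 8.29 CPM against 41.3 and 30.1 CPM.

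Among the 12 genes that fell were 2 of the 6 markers. Cebpe, the C/EBP factor needed for late granule genes (chr14:54710360-54712174), had 121 and 102 CPM in PyMT mice and 159.5 and 234 CPM in WT mice. It fell by 0.71 ± 0.15 on the log2 scale (adjusted p = 0.0402 by edgeR). Fcgr3 (chr1:171051174-171064935) had 84.4 and 67.9 CPM in PyMT mice and 134 and 165 CPM in WT mice and fell by 0.90 ± 0.15 (adjusted p = 0.00358 by edgeR). The call of Cebpe was lost without WT replicate 2 (adjusted p = 0.125) and in G1 cells, whereas Fcgr3 was called without each mouse in turn. In cells chosen by Prtn3 in place of Elane neither was called: Cebpe turned to a log2 change of 0.27 and Fcgr3 was at −0.08. Within each Elane bin both were lower in the PyMT mice than in WT replicate 1. At 100 and over Elane UMIs per 10000, Cebpe had 276 and 272 CPM in PyMT mice and 403 CPM in WT replicate 1, and Fcgr3 had 198 and 193 against 374 CPM. Fcgr3 was detected in 42.1% and 28.0% of Elane-high cells in PyMT mice and in 51.0% and 69.7% in WT mice, and Cebpe in 50.1% and 35.8% against 49.5% and 48.5%, with PyMT replicate 2 the shallowest.

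The other 4 markers were not called. For Mpo both PyMT mice lay slightly below both WT mice. Mpo had 13450 and 14552 CPM in PyMT mice and 15092 and 15812 CPM in WT mice (log2 change −0.14 ± 0.10, adjusted p = 0.660 by edgeR). Ms4a3 had 855 and 851 CPM in PyMT mice and 804 and 1024 CPM in WT mice. Ly6c2 had 150.1 and 109 CPM in PyMT mice and 148 and 253 CPM in WT mice, and Elane, whose level the cut bounds, 7679 and 7159 against 7508 and 8619 CPM. Of the 23 primary granule genes tested, 0 were called in either direction by edgeR, and 9 had an unadjusted p under 0.05. Their median log2 change was −0.15, with 18 of 23 below 0. Ctsg had 4764 and 3719 CPM in PyMT mice and 5184 and 5650 CPM in WT mice (−0.35 ± 0.11, adjusted p = 0.201). Prtn3 had 5354 and 4983 CPM in PyMT mice and 4788 and 4474 CPM in WT mice (0.16 ± 0.10), and haptoglobin (Hp) had 443 and 427 against 353 and 243 CPM (0.47 ± 0.12, adjusted p = 0.108).

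Of the falls other than the markers, 4 had the smallest p. Cdk5rap1, an enzyme that modifies mitochondrial tRNA, had 8.71 and 8.29 CPM in PyMT mice and 41.3 and 30.1 CPM in WT mice. It fell by 2.18 ± 0.24 on the log2 scale (adjusted p = 6.9e-05 by edgeR), and was lost without WT replicate 1 (0.0754). Prg3, a granule protein of eosinophils, had 1.78 and 2.41 CPM in PyMT mice and 12.2 and 19.3 CPM in WT mice and fell by 2.71 ± 0.42 (adjusted p = 0.0024 by edgeR). Those values are 10, 9, 33 and 9 UMIs. Cited2, a co-regulator that binds CBP and p300, had 109 and 123 CPM in PyMT mice and 188 and 221 CPM in WT mice and fell by 0.78 ± 0.13 (adjusted p = 0.00358 by edgeR). Ltb4r1, the leukotriene B4 receptor, had 30.7 and 26.5 CPM in PyMT mice and 61.5 and 55.8 CPM in WT mice and fell by 1.06 ± 0.18 (adjusted p = 0.00521 by edgeR). It was lost without WT replicate 1 (0.258).

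The other falls had larger p-values. Clec12a, an inhibitory lectin of myeloid cells, had 234 and 205 CPM in PyMT mice and 296 and 406 CPM in WT mice. Dusp6, a phosphatase of ERK, had 8.88 and 10.2 CPM in PyMT mice and 20.6 and 30.1 CPM in WT mice. Gng10 had 17.2 and 12.8 CPM in PyMT mice and 30.9 and 40.8 CPM in WT mice. Rnaset2a, Cks1brt and the X-inactivation RNA Xist completed the 12, with log2 changes of −0.58, −0.85 and −0.48. Rnaset2a and Cks1brt have near-identical copies in the genome, so their reads are uncertain. Cks1b, the gene related to Cks1brt, had 613 and 683 CPM in PyMT mice and 602 and 603 CPM in WT mice and was not called. Without WT replicate 1 the calls of Gng10 (adjusted p = 0.0884), Dusp6 (0.114) and Xist (0.0773) were lost, and without WT replicate 2 those of Clec12a (0.212), Rnaset2a (0.201), Dusp6 (0.0504) and Xist (0.24).

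Apart from Cebpb, Cebpe and Fcgr3, no member of the lists of myeloid transcription factors, cytokine receptors and progenitor surface molecules was called. Of 26 tested myeloid transcription factors, Cebpb rose, Cebpe fell and the other 24 were not called (median −0.14). Of the 26, 11 had an unadjusted p under 0.05. PyMT lay below WT without overlap for 12 of them and above for 4, against 21.4% and 21.9% of all genes. Spi1 had 364 and 373 CPM in PyMT mice and 389 and 447 CPM in WT mice, and Irf8 had 230.1 and 235 against 281 and 264 CPM. Cebpa had 139 and 96.3 CPM in PyMT mice and 148 and 152 CPM in WT mice, and Gfi1 had 58.5 and 48.1 against 63.7 and 62.3 CPM. All 4 lay below WT in both PyMT mice, with adjusted p from 0.386 to 0.633 by edgeR. Of 26 cytokine receptors 0 were called (5 at an unadjusted p under 0.05, median −0.15). Ifngr1 had 272 and 277 CPM in PyMT mice and 344 and 401 CPM in WT mice (−0.41 ± 0.11, adjusted p = 0.104), and Ifnar2 had 122 and 113 against 114 and 107 CPM. Of 22 progenitor surface molecules, Fcgr3 fell and 0 rose (8 at an unadjusted p under 0.05, median −0.18). PyMT lay below WT without overlap for 10 of these 22 and above for 4.

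Of 27 genes of the endoplasmic reticulum and the unfolded protein response, Hspa5 was higher and 0 were lower (median 0.09). Hspa5 had 1672 and 1440.1 CPM in PyMT mice and 1160.2 and 1058 CPM in WT mice (0.48 ± 0.10, adjusted p = 0.0402 by edgeR), and was lost without WT replicate 1 (0.0981) or 2 (0.285). Creld2 (0.59), Herpud1 (0.50) and Sdf2l1 (0.42) did not pass, with adjusted p of 0.0604, 0.0872 and 0.0872. Of 41 respiratory chain genes 0 were called (10 at an unadjusted p under 0.05, median 0.10), of 26 glycolysis and hypoxia genes 0 (7, median 0.04), of 16 NF-kB genes 0 (4, median 0.11), of 21 monocyte and dendritic genes 0 (4, median −0.03) and of 7 NADPH oxidase genes 0 (0, median 0.06). Of 7 secondary and tertiary granule genes 0 were called (4, median 0.35). For 22 of the 41 respiratory chain genes PyMT lay above WT without overlap, and for 1 below, against 21.9% and 21.4% of all genes tested. Mitochondrially encoded transcripts, a sign of RNA quality, summed to 20297 and 20023 CPM in PyMT mice and 23054 and 22608 CPM in WT mice. Of these 13 genes 0 were called (6 at an unadjusted p under 0.05), and for 10 of them PyMT lay below WT without overlap.

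**Figure D4:**
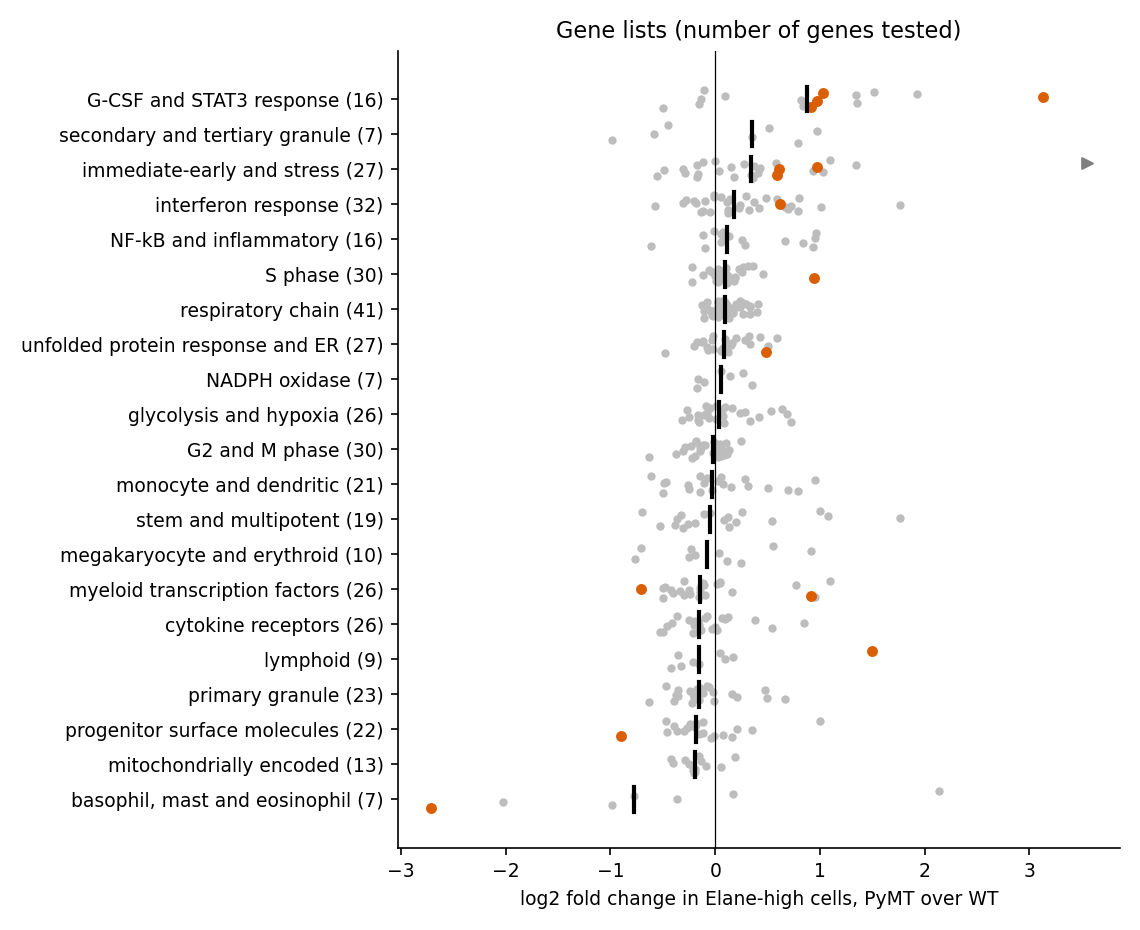
Log2 fold change (PyMT over WT) in Elane-high cells for the tested members of 21 gene lists with at least 5 tested members. Grey points were not called, orange points had an edgeR adjusted p under 0.05, black bars are list medians, and the grey triangle is Hspa1a, which had 0 UMIs in both WT mice and lies beyond the axis. The G-CSF and STAT3 response list has the highest median (0.88) and 4 orange points.

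A somewhat smaller share of Elane-high cells was called cycling in both PyMT mice. By the authors' phase calls, 31.2% and 38.3% of Elane-high cells were in S or G2M phase in PyMT mice and 40.1% and 39.4% in WT mice. The part of free RNA in the phase calls was not tested. The difference of −5.02 percentage points had an exact permutation p of 0.333, and it was −1.50 points without PyMT replicate 1 and −8.54 points without PyMT replicate 2. At the cut of 50 Elane UMIs per 10000 it was −0.98 points and the groups overlapped. In other HSPC the shares were 25.4% and 23.1% in PyMT mice and 25.3% and 25.8% in WT mice. Of 30 S phase genes only Ccne2 (cyclin E2) was called, at 57.0 and 56.4 CPM in PyMT mice and 30.9 and 23.6 CPM in WT mice, and it was lost without WT replicate 1 (adjusted p = 0.135 by edgeR). The log2 change was above 0 for 24 of the 30 S phase genes and below 0 for 6, with a median of 0.10. Without overlap, PyMT lay above WT for 12 of them and below for 2, against 21.9% and 21.4% of all genes tested. Of 30 G2 and M phase genes 0 were called by edgeR (3 at an unadjusted p under 0.05, median −0.02). Here PyMT lay above WT without overlap for 3 and below for 8. Mki67 had 91.5 and 103 CPM in PyMT mice and 106 and 60.1 CPM in WT mice.

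Markers of other cell types moved in part with genotype. The stem and multipotent list summed to 2478 and 2109 CPM in PyMT mice and 1248 and 876 CPM in WT mice, of which Ifitm1 made up 1958 and 1504 CPM in PyMT mice and 650 and 301 CPM in WT mice. Of its 19 tested members 0 were called (3 at an unadjusted p under 0.05), and the median was −0.05. Ly6a had 21.1 and 19.0 CPM in PyMT mice and 9.95 and 10.7 CPM in WT mice. The basophil, mast cell and eosinophil list summed to 420.4 and 500.1 CPM in PyMT mice and 627 and 992 CPM in WT mice, with Prg3 the only one of 7 tested members called. Hdc, which the secondary granule list also holds, had 98.6 and 117 CPM in PyMT mice and 171 and 296 CPM in WT mice (−0.98 ± 0.22, adjusted p = 0.124). Megakaryocyte and erythroid genes summed to 306 and 395 CPM in PyMT mice and 361 and 369 CPM in WT mice (0 of 10 called), stroma and endothelium genes to 86.7 and 99.7 against 115 and 101 CPM (0 of 4), and mature lymphocyte genes to 1026 and 1068 against 1084 and 1309 CPM (0 of 3). The part of other cells in the called genes was not tested.

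The PyMT effect in Elane-high cells was set beside that in all other HSPC of the same mice. In other HSPC 123 of 11671 genes were higher (1.05%) and 67 lower (0.574%). Of the 36 genes called in Elane-high cells, 15 were also called there, all 15 with the same sign. Socs3, Pim1, Cebpb and Junb had log2 changes of 2.70 ± 0.18, 0.81 ± 0.10, 1.33 ± 0.13 and 1.18 ± 0.13 there, each called by edgeR. In a model with a term for each mouse, the difference of the 2 effects was called for none of these 4 (adjusted p from 0.0812 to 0.851). Their levels in other HSPC differed from those in Elane-high cells. Socs3 had 70.3 and 56.6 CPM in other HSPC of PyMT mice and 11.3 and 7.92 CPM in those of WT mice, and Pim1 had 567 and 646 against 366 and 328 CPM.

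The difference of effects passed for 93 of 11231 genes, 20 with a higher effect in Elane-high cells (0.178%) and 73 with a lower one (0.65%). At an unadjusted p under 0.05 it was 8.16%. Without 1 mouse the number was 18 (PyMT replicate 1 left out), 43 (PyMT replicate 2), 113 (WT replicate 1) or 66 (WT replicate 2). Of the lower ones the 5 of smallest p are given here. Cebpe fell in Elane-high cells, yet had 7.52 and 4.57 CPM in other HSPC of PyMT mice and 3.42 and 1.86 CPM in those of WT mice. The log2 difference was −1.76 ± 0.20 (adjusted p = 2.58e-13 by edgeR). The granule protease Prss57 had 282 and 208 CPM in Elane-high cells of PyMT mice and 292 and 270.5 CPM in those of WT mice, against 130.0 and 88.2 CPM and 75.2 and 59.7 CPM in other HSPC (difference −0.81 ± 0.09). Cystatin F (Cst7) had 267 and 250.3 CPM in Elane-high cells of PyMT mice and 252 and 277 CPM in those of WT mice, with 121 and 105 CPM and 64.8 and 53.9 CPM in other HSPC (−0.84 ± 0.09). The tetraspanin Cd53 (−0.74 ± 0.09) and the glutathione transferase Gstm1 (−0.55 ± 0.08) completed the 5. Gstm1 was lost without PyMT replicate 2 (adjusted p = 0.0846).

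Cebpe, Prss57, Cst7 and Gstm1 also differed between the Elane bins, and other HSPC of PyMT mice held more cells just below the cut. Elane itself had 225 and 139 CPM in other HSPC of PyMT mice and 103 and 25.6 CPM in those of WT mice. The part of this in the differences was not tested. Fcgr3 (−0.79 ± 0.21, adjusted p = 0.0233), Ltb4r1 (−0.89 ± 0.19), Clec12a (−0.49 ± 0.09) and Hspa5 (−0.28 ± 0.06) also differed. Fcgr3 was at 4.52 and 3.36 CPM in other HSPC of PyMT mice and at 4.97 and 2.70 CPM in those of WT mice.

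Of the genes with a higher effect in Elane-high cells, the 5 of smallest p were Car2, Loxl2, Nol4l, Fyb and Dntt. Car2, of erythroid and megakaryocytic progenitors, had 713 and 1059 CPM in other HSPC of PyMT mice and 1147 and 1618 CPM in those of WT mice, while in Elane-high cells it had 118 and 182 against 134 and 148 CPM (difference 0.65 ± 0.09, adjusted p = 2.26e-09 by edgeR). The matrix cross-linking enzyme Loxl2 had 22.4 and 47.9 CPM in Elane-high cells of PyMT mice and 12.9 and 2.15 CPM in those of WT mice (difference 1.72 ± 0.26). Nol4l (1.69 ± 0.30), the adaptor Fyb (0.74 ± 0.15) and Dntt (0.94 ± 0.19) were each lost without PyMT replicate 2 (adjusted p = 0.498, 0.288 and 0.108) and without WT replicate 1 (0.288, 0.425 and 0.826).

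**Figure D5:**
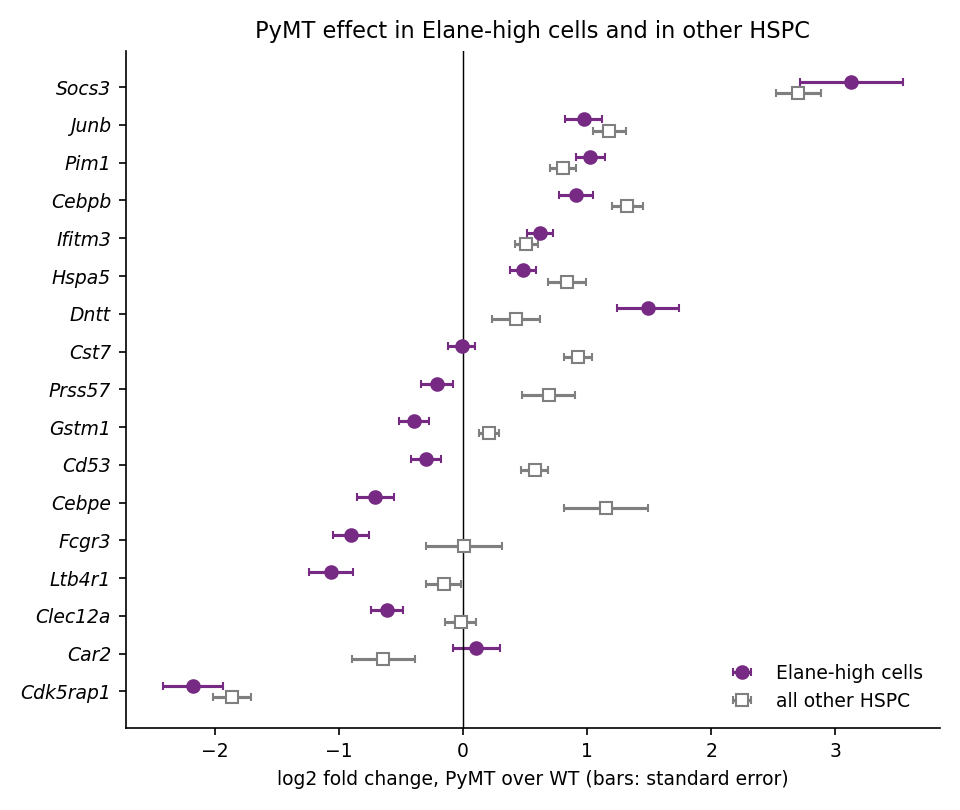
Log2 fold change, PyMT over WT, of 17 genes in Elane-high cells (filled circles) and in all other HSPC (open squares), with standard errors from the edgeR fit. Socs3, Junb, Pim1 and Cebpb lie right of 0 in both compartments, whereas Cebpe lies at −0.71 in Elane-high cells and at 1.15 in other HSPC.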

How the data were processed

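Single-cell libraries of bone marrow HSPC from 2 PyMT and 2 WT mice were used. Per the submitters' processing notes, Cell Ranger 6.0.0, STAR 2.5.3a and Trim Galore were used with build mm10. The deposited table holds raw UMI counts for 11992 genes, with 0 ribosomal protein genes, and the metadata the authors deposited give each cell's mouse, genotype, phase call and mitochondrial percent (at most 4.50%). The sources used here name no sort gates and no filters before deposit. The labels name the droplet chemistry in 2 different versions.

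Counts were summed per mouse and fitted with edgeR 4.0.16 (R 4.3.3; TMM, filterByExpr, robust quasi-likelihood, Benjamini-Hochberg, threshold 0.05). SE is the log2 change divided by the square root of F. Identity ratios used CPM with a pseudocount of 1. Single values were compared by exact two-sided permutation over mice (3 splits). The edgeR test was checked on simulated counts. It recovered 41.7% of genes changed 1.5-fold, 79.6% at 2-fold, 93.9% at 4-fold and 100% at 8-fold. Of its 164 calls there, 7.32% were false, above the threshold of 0.05. Smaller changes can therefore be missed where 0 genes were called. Alternatives were other cuts, DESeq2 1.42.0, its size factors, no filter, G1 cells, Prtn3-chosen cells, 4 granule genes left out, thinning and leaving out each mouse.

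Members and gene lists were chosen with earlier results of these data known. Named were the 15 highest and 10 lowest identity ratios, the 12 called genes of smallest p per direction without overlap, the 6 markers, called list members (or the 2 most abundant), and 5 differences of effects per direction. Other genes were named after their values were seen. One gene that the rule names among the lowest identity ratios is not reported here. Bulk and stromal data were not used.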

Additional observations from a re-analysis of the deposited data

Results flagged for a closer look

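The PyMT effect differed between Elane-high cells and all other HSPC of the same mice for 20 genes with a higher and 73 with a lower effect in Elane-high cells, by edgeR's test of the difference with a term for each mouse. The 5 of smallest p with a higher effect had log2 differences of 0.65 (Car2), 1.72 (Loxl2), 1.69 (Nol4l), 0.74 (Fyb) and 0.94 (Dntt). The 5 with a lower effect had −0.84 (Cst7), −0.81 (Prss57), −1.76 (Cebpe), −0.74 (Cd53) and −0.55 (Gstm1). The signs were opposite in Elane-high cells and other HSPC for Cebpe, Prss57, Cst7, Cd53, Gstm1, Car2, Nol4l and Fyb. Of these only Cebpe was called in Elane-high cells, where Cst7, Car2 and Prss57 had log2 changes of −0.01, 0.11 and −0.21. Loxl2 and Dntt had the same sign in both. Of the 36 genes called in Elane-high cells, 15 were also called in other HSPC, all 15 with the same sign. The difference of effects passed for 6 of the 36. Cebpe had 121 and 102 CPM in PyMT mice against 159.5 and 234 CPM in WT mice among Elane-high cells. Among other HSPC it had 7.52 and 4.57 CPM against 3.42 and 1.86 CPM. Elane, by which the cells were split, also differed among other HSPC (225 and 139 CPM in PyMT mice, 103 and 25.6 CPM in WT mice), and its part was not tested.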

How the results depend on the processing

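With 2 mice a group, 1 of them with 33 Elane-high cells and 461007 UMIs, the number of called genes moved with the processing. In Elane-high cells, 36 calls became 103 at a cut of 50 Elane UMIs per 10000 (added after seeing the data), 471 in cells chosen by Prtn3 (62.8% to 74.5% of PyMT and 36.9% to 56.9% of WT HSPC), 12 in G1 cells, 154 without the filter on low counts, and 41 to 347 with 1 mouse left out. They were 48 and 50 at cuts of 5 and 20, 37 without 4 granule genes, 33 with DESeq2 size factors and 30 (23 higher, 7 lower) with DESeq2, which gave no adjusted p for 8573 of 9409 genes, 25 of the 36 among them. Calls in other HSPC were 190, 479 with DESeq2, and 44 to 1099 with 1 mouse left out. Differences of effects were 93, and 18 to 113 with 1 mouse left out. In fits that leave 1 mouse in a group, that mouse is assumed to vary like the other group. Socs3, Pim1 and Junb were called in each alternative that gave an adjusted p, and Cebpb in each but G1 cells (0.0616). Fcgr3 was lost only in cells chosen by Prtn3 (0.921). Cebpe was lost in G1 cells and without WT replicate 2 and turned to 0.27 (adjusted p = 0.682) in cells chosen by Prtn3; the cause was not tested. Of the 36 calls, 28 were lost in G1 cells, which are fewer. The difference in the share of Elane-high cells stayed positive, from 3.43 to 8.49 points with 1 mouse left out, at 11.2, 4.41 and 2.65 points for cuts of 5, 20 and 50, 8.70 thinned and 21.8 by Prtn3. The differences in cycling share and Elane level stayed negative. No paired analysis was possible because the PyMT and WT mice share no replicate number in the labels. The shallowest values, such as Socs3 in WT replicate 2, are limited by a floor of 6.51 CPM (3 UMIs).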
